A study of Rattus norvegicus with 6 samples.

Results

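The 8 genes described here encode the platelet-derived growth factor (PDGF) and hepatocyte growth factor (HGF) systems: the PDGF ligands Pdgfa, Pdgfb, Pdgfc and Pdgfd, the PDGF receptors Pdgfra and Pdgfrb, the ligand Hgf and its receptor Met. They were picked out of the table by gene symbol, and each symbol matched 1 of the 30957 genes in the mRNA table. All 8 passed the filter on low counts, which kept 15195 genes. The data are RNA-seq fragment counts from the sciatic nerves of 6 Sprague-Dawley rats that were 1 month old, with 2 rats and 2 libraries in each of 3 groups. In the D4 and D7 groups the middle of the left sciatic nerve had been clamped with forceps, and the nerve was taken on day 4 or day 7. The control rats are normal controls by the labels and rats operated on without clamping by the methods. Anesthesia and nerve exposure were thus shared by all groups under the second reading, no group carried an altered allele, and the methods describe the samples as normal or injured nerve, without a length. The libraries of a group are named a and b, the letters mark different rats, and the p-values measure the spread between these few rats.

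PDGF ligands are secreted dimers that bind receptor tyrosine kinases. The alpha receptor takes the A, B and C chains and the beta receptor the B and D chains. In tissues the alpha receptor is known as a receptor of fibroblasts and the beta receptor as one of pericytes and vascular smooth muscle, which PDGF-B from endothelium recruits to vessels. HGF is made mainly by mesenchymal cells as an inactive precursor and acts through MET, a receptor tyrosine kinase of epithelial, endothelial and other cells. Both systems drive growth and migration of cells in wounds.

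The mRNA libraries held between 18727255 and 25350886 counted fragments. Differences were tested with the quasi-likelihood method of edgeR, and p-values were adjusted over all 15195 genes after Benjamini and Hochberg. A call required an adjusted p-value under 0.05 together with a change of at least 2-fold. By this rule 21.9% of the tested genes were called at D4 against control (11.2% higher and 10.7% lower), 18.8% at D7 (9.83% higher and 9.02% lower) and 2.18% at D7 against D4 (1.68% higher and 0.494% lower). Cell type markers were read as sums over a list of CPM, the count scaled by library total and TMM factor. Schwann cell markers, which define the labelled tissue, were present in every library, and their sum was 67163 to 98191 in control, 8000 to 8828 at D4 and 13877 to 20409 at D7, with 5 of 10 lower and 2 higher at D4 and 3 lower and 2 higher at D7. Macrophage markers were 485.5 to 497.9 in control and 2222 to 3091 after injury, and 10 of 10 were called higher at D4 and 8 of 10 at D7. Markers of dividing cells were 34.3 to 73.0 in control, 880.1 to 1022 at D4 and 581.1 to 619.8 at D7, all 6 higher at both days. Perineurial markers summed to 3042 to 3632 in control and 1516 to 2054 after injury (3 of 7 lower and 1 higher at both days, Lypd2 at 0). Adipocyte markers summed to 1499 to 1804 in control and 314.3 to 632.7 at D4. The D7 libraries lay far apart in these markers, with 66.7 in D7 a and 729.1 in D7 b. Of the 7 adipocyte markers 1 was called lower at D7, and their median log2 fold change was −2.23 at D4 and −2.41 at D7. Platelet markers summed to 5.46 to 7.42 in control and 12.2 to 14.8 after injury. Of the 2 tested, Pf4 was called higher at both days and Itga2b lower at D4. Ppbp, Gp1ba and Gp9 held 0 to 5 counts in a library and were not tested. Skeletal muscle markers overlapped between groups (7.54 to 87.3), with 1 of 7 lower at both days. Control b stood apart in smooth muscle: its mural cell markers summed to 7445, against 1607 in control a and 766.0 to 1593 in the injured libraries, so values of the 8 genes and of the vessel and fibroblast markers that turn on it are also given without it.

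Per transcript length the receptors were the more abundant side of the PDGF system. The deposited FPKM values, which are counts divided by transcript length and by the library's mRNA total, were used for levels between genes. In control nerve Pdgfra was highest with a mean of 44.5 FPKM ± 1.71 (SD, n = 2), followed by Pdgfrb with 29.5 ± 4.72 (SD, n = 2). Pdgfb had 18.5 ± 7.11 and Pdgfa 14.6 ± 2.37 FPKM, and these neighbours overlapped. Pdgfc followed at 9.20 ± 2.20 FPKM. Met at 4.95 ± 1.05, Pdgfd at 4.61 ± 1.46 and Hgf at 2.53 ± 1.96 FPKM were lowest, and each overlapped the next. On D4 the order was Pdgfra (86.9 ± 5.75), Pdgfa (34.3 ± 3.37), Met (30.2 ± 0.443), Pdgfrb (20.0 ± 0.854), Pdgfb (10.7 ± 3.91), Pdgfc (3.97 ± 0.633), Pdgfd (2.67 ± 0.442) and Hgf (2.56 ± 0.487), and in it Pdgfd and Hgf were the 1 pair of neighbours whose libraries overlapped. On D7 Pdgfra (76.5 ± 8.82) was again highest, Pdgfrb (26.1 ± 1.47) lay above Pdgfa (23.2 ± 1.25), and Met (14.2 ± 3.17) came next. Pdgfb (10.6 ± 0.915), Pdgfc (4.59 ± 1.76), Pdgfd (3.41 ± 0.306) and Hgf (2.89 ± 0.960) closed the D7 order, with Pdgfc, Pdgfd and Hgf overlapping in turn.

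Of the 8 genes, 4 were called at D4 against control, 1 higher (Met) and 3 lower (Pdgfb, Pdgfc and Pdgfd). At D7 there were 3 calls against the same control libraries, Met higher and Pdgfb and Pdgfc lower. These counts stand beside the 21.9% and 18.8% of all tested genes. The median log2 fold change of the 8 was −0.55 at D4 and −0.28 at D7, where the median of all tested genes was −0.04 and 0.01. Without TMM factors the calls were 2 higher and 1 lower at D4 and 1 higher and 1 lower at D7, where those over all genes went from 1706 higher and 1627 lower to 2430 and 1077 at D4, and from 1493 and 1370 to 2215 and 930 at D7. The count at D4 was 2 without control b and 1 without D4 b. At D7 it was 1 without control b, 1 without D7 a and 1 without D7 b.

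**Figure D1:**
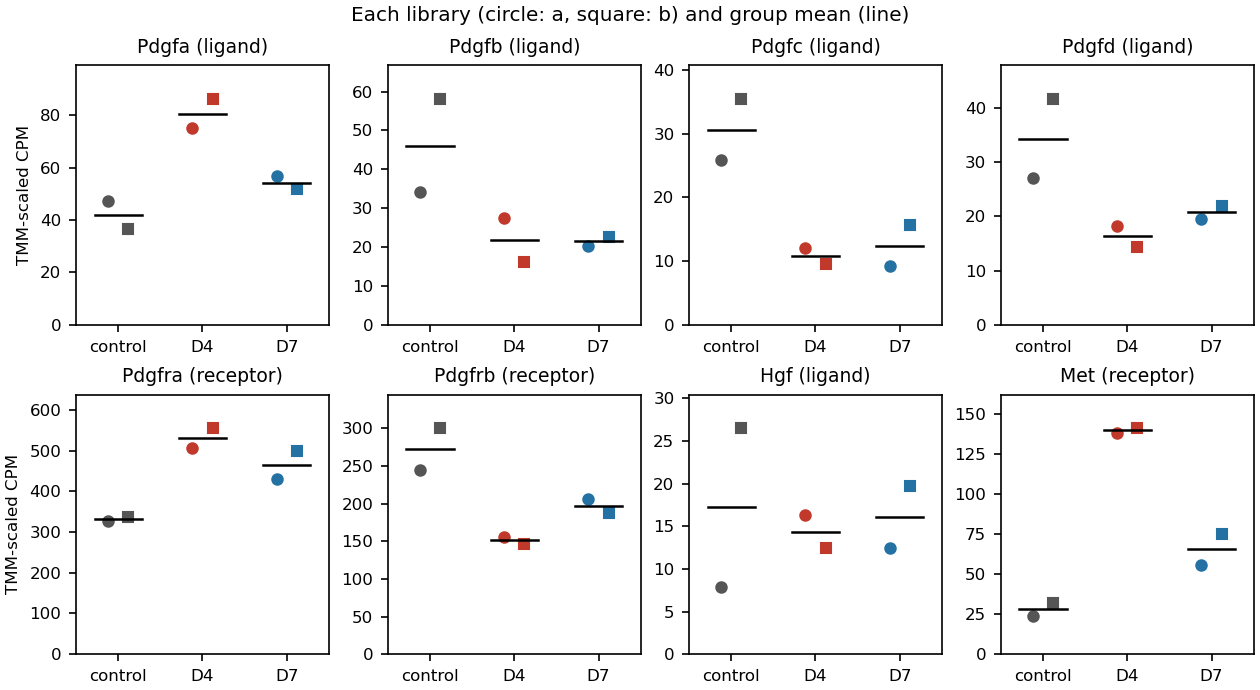
Level of each gene in TMM-scaled CPM (vertical axis, from 0, 1 panel a gene) in the control, D4 and D7 groups; circles are libraries a, squares libraries b and lines group means. Met lay at 24.1 and 31.8 CPM in control and at 138.4 and 141.0 on D4, whereas the control libraries of Hgf lay at 7.93 and 26.5.

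Among the PDGF ligands after TMM scaling, the injured libraries lay above control for Pdgfa and below it for the other chains. In FPKM, which carry no TMM factors, this separation held for Pdgfa and Pdgfc and not for Pdgfb and Pdgfd. Pdgfa encodes the A chain, a ligand of the alpha receptor. The gene lies on chromosome 12 from 17734133 to 17755285 (Rnor_6.0). Its counts of 917 and 607 in control compare with 1830 and 2332 at D4 and 1208 and 1047 at D7. After TMM scaling these came to 47.2 and 36.6 CPM in control, 75.1 and 86.2 at D4 and 56.7 and 51.8 at D7. Both libraries of each injured group lay above both control libraries. The log2 fold change at D4 was 0.94 (SE 0.15, adjusted p = 0.00399, edgeR), a 1.92-fold difference that passed the adjusted p and fell short of the 2-fold threshold, so it was not called. At D7 it was 0.37 (SE 0.15, adjusted p = 0.0980), and the direct comparison of D7 with D4 gave −0.57 (SE 0.15, adjusted p = 0.0849). Without TMM factors the D4 value was 1.23 and passed both thresholds. It was 1.14 without control a and 1.04 without D4 a, against 0.77 without control b and 0.84 without D4 b. Of the 13 alternatives 10 kept the direction and call status of the D4 value. Without TMM factors the median of all tested genes also stood at 0.25 at D4 and 0.31 at D7.

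Pdgfb (chromosome 7, 121214628 to 121232741) encodes the B chain, which binds both receptors. The control libraries held 661 and 963 counts, the D4 libraries 673 and 440 and the D7 libraries 433 and 458. The scaled levels were 34.1 and 58.1 CPM in control against 27.6 and 16.3 at D4 and 20.3 and 22.7 at D7. Control b was thus far above the rest, and on this scale no injured library reached a control one. In FPKM, D4 a (13.47) lay just above control a (13.45). On the log2 scale Pdgfb fell by 1.07 at D4 (SE 0.33, adjusted p = 0.0411, edgeR) and by 1.10 at D7 (SE 0.33, adjusted p = 0.0435), just inside both thresholds. D7 and D4 differed by −0.03, with a 95% interval from −0.83 to 0.77. Without control b the values were −0.64 at D4 (adjusted p = 0.165) and −0.67 at D7 (adjusted p = 0.164), and without TMM factors −0.79 and −0.81, none of them called. Over the 13 alternatives the D4 call was lost in 7 and the D7 call in 5, among them those without D4 b (−0.74) at D4, without D7 a (−0.99) and without D7 b (−1.18) at D7, and with the replicate letter as a block (adjusted p 0.0683 and 0.0676). Endothelial markers summed to 873.5 CPM in control a and 1513 in control b, against 563.0 to 631.1 at D4 and 333.9 to 534.8 at D7, with 3 of 7 markers lower at D4, 5 of 7 at D7 (2 and 3 without control b) and none of the 7 at 0. The part of endothelial content in the Pdgfb values was not tested, and in whole-tissue RNA fewer cells of a type and less RNA per cell cannot be told apart.

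Pdgfc (chromosome 2, 179952227 to 180128283) encodes the C chain, which is secreted with a CUB domain that a protease removes. Control libraries held 501 and 587 counts (25.8 and 35.4 CPM), D4 libraries 294 and 260 (12.1 and 9.61 CPM) and D7 libraries 195 and 318 (9.16 and 15.7 CPM). Both injured groups lay wholly below control. On the log2 scale Pdgfc fell by 1.497 at D4 (SE 0.30, adjusted p = 0.00907, edgeR) and was lower at D7 with a value of −1.298 (SE 0.30, adjusted p = 0.0179), which made it the ligand with the lowest fitted value at both days. The D4 call held without control b (−1.25) and was lost without D4 b (−1.34, adjusted p = 0.0689). The D7 call was lost without control b (−1.06, adjusted p = 0.0679) and without D7 a (−0.93, adjusted p = 0.0581).

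Pdgfd (chromosome 8, 4440876 to 4669014) encodes the D chain, a ligand of the beta receptor that is also activated by proteolysis. Its counts were 525 and 690 in control libraries, 445 and 390 after 4 days and 417 and 443 after 7. Scaled, this gave 27.0 and 41.6 CPM in control, 18.3 and 14.4 at D4 and 19.6 and 21.9 at D7. Control b was again highest, and on this scale injured and control libraries did not overlap. In FPKM, D7 b (3.625) lay above control a (3.576). On the log2 scale Pdgfd fell by 1.07 at D4 (SE 0.23, adjusted p = 0.0127, edgeR). At D7 its log2 fold change was −0.72 (SE 0.23, adjusted p = 0.0524) and was not called, and D7 against D4 gave 0.35 (SE 0.23, adjusted p = 0.411). The D4 value was −0.73 without control b, −0.91 without D4 b and −0.79 without TMM factors, none of which was called, whereas the D7 value was −1.004 and called without control a. The span of Pdgfc overlaps a gene listed as U7 and that of Pdgfd overlaps Ddi1, and the strand setting of the counting is not given in the sources used here.

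Within a library, shares of the 4 ligands do not depend on the scaling between libraries. Pdgfa made up 39.7% of the summed PDGF ligand FPKM in control a, 24.4% in control b, 60.5% and 72.6% at D4 and 59.4% and 51.9% at D7. Both injured groups lay above control in this share. Pdgfb went from 32.9% and 44.5% in control to 25.5% and 15.7% at D4 and 24.4% and 26.1% at D7. The sum itself was 40.9 and 52.8 FPKM in control, 52.8 and 50.5 at D4 and 40.5 and 42.9 at D7. On these values it overlapped between groups. Unlike the shares, the sum depends on the scaling between libraries, and FPKM carry no TMM factors. Those factors were 0.863 and 0.885 in control and 1.06 to 1.08 after injury, so TMM scaling would raise control against the injured libraries. The overlap is thus given for unscaled values only. With 2 libraries against 2 an exact permutation test (two-sided) cannot go below p = 0.333, and the shares are a description.

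**Figure D2:**
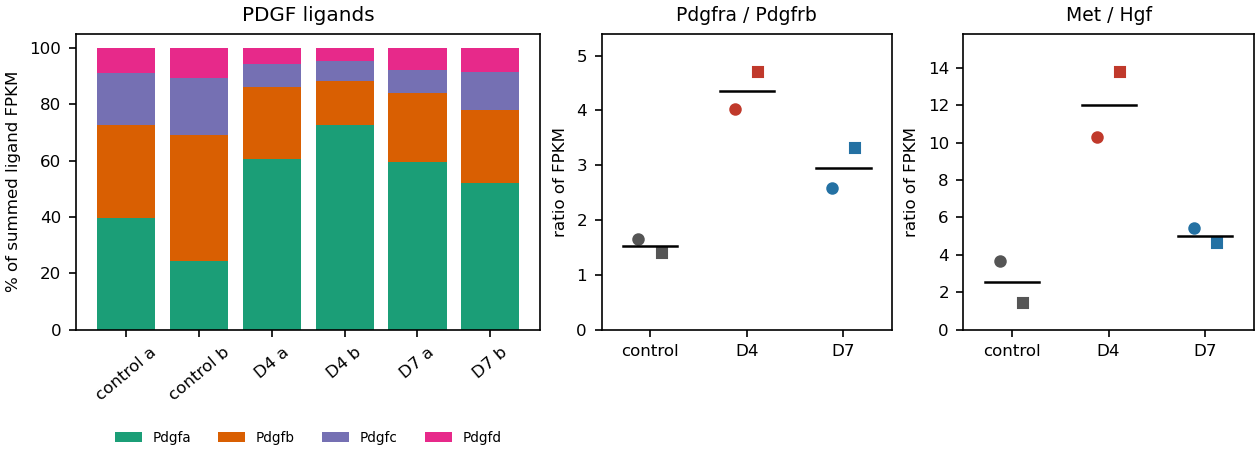
Ratios within each library: the share of each ligand in the summed PDGF ligand FPKM (stacked bars, %), the FPKM ratio of Pdgfra to Pdgfrb, and that of Met to Hgf (circles a, squares b, lines group means). The Pdgfa share was 24.4% to 39.7% in control and 51.9% to 72.6% after injury.

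The stretches of genome just upstream of 4 of these genes are shown because Pdgfa differed in direction from Pdgfb and Pdgfd, and Pdgfra from its paired receptor. They are the 250 bases before the start site in RefSeq's promoter table (build GRCr8), written 5′ to 3′ on the gene's strand. Of the 8 genes 7 were in the table and Pdgfrb was not. The start site listed for Met lies 27.9 kb inside the gene and that of Pdgfc 1.76 kb inside, so neither is shown. The listed start sites of Pdgfd and Pdgfra lie 173 and 88 bp inside the annotated gene. Capitals mark motif letters found on either strand. The positions are chr12:20759116-20759365 (plus strand) for Pdgfa, chr7:113438344-113438593 (minus strand) for Pdgfb, chr8:11773258-11773507 (plus strand) for Pdgfd and chr14:33408517-33408766 (minus strand) for Pdgfra.
Pdgfa: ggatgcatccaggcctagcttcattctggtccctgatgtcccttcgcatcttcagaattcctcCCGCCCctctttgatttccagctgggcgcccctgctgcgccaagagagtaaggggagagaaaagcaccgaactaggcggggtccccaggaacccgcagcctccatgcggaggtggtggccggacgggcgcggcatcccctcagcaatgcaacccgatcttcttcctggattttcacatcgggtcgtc
Pdgfb: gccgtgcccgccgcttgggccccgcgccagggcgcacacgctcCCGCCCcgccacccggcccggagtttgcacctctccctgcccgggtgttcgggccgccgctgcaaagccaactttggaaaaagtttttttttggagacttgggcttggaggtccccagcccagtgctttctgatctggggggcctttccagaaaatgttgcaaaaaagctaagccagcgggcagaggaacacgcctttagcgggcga
Pdgfd: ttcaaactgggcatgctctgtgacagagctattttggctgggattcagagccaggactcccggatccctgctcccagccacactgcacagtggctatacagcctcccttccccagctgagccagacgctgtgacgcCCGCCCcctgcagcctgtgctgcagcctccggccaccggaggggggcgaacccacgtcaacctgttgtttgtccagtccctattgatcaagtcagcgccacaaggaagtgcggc
Pdgfra: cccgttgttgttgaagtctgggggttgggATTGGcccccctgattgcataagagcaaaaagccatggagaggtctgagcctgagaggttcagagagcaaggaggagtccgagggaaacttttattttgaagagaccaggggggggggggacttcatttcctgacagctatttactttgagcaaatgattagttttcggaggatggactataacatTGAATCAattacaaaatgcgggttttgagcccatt

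The GC box GGGCGG was searched, with the other motifs, in the 5 windows of Pdgfa, Pdgfb, Pdgfd, Pdgfra and Hgf. It occurred in 3 of the 5 (Pdgfa, Pdgfb and Pdgfd), in each as its reverse complement, against 30.5% of the 33469 windows of that length in the table. The AP-1 motif TGANTCA occurred in the Pdgfra window, 35 bases before the start site, against 6.34% of all windows. CCAAT, on the opposite strand, occurred in the windows of Pdgfra and Hgf, against 34.0%. The letters TATAAA (12.9% of all windows), CACGTG (5.59%) and TGACGTCA (1.59%) were in none of the 5. The ligand with the higher level and 2 of the ligands with a lower level thus share the GC box, and a match is a description of letters only. The windows of Pdgfa, Pdgfb and Pdgfd were 60.8%, 63.6% and 61.6% G or C and that of Pdgfra 47.2%, with a median of 51.2% over the table.

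The fitted changes of the PDGF receptors had opposite signs, and neither reached 2-fold. Pdgfra, the alpha receptor (chromosome 14, 35527927 to 35581031), had counts of 6350 and 5588 in control, of 12332 and 15018 at D4 and of 9164 and 10095 at D7. Scaled, these were 327.1 and 336.9 CPM, then 506.2 and 554.8, then 430.3 and 499.5, with all 4 injured libraries above both controls. Its log2 fold change was 0.68 at D4 (SE 0.11, adjusted p = 0.00474, edgeR) and 0.49 at D7 (SE 0.11, adjusted p = 0.0187), below the 2-fold threshold at both days. D7 and D4 differed by −0.19 (95% interval −0.46 to 0.08). Fibroblast markers summed to 56511 and 61374 CPM in control, 33814 to 37836 at D4 and 28908 to 32446 at D7. Of the 9 tested, 0 were called at D4 (5 had an unadjusted p under 0.05 in edgeR, and DESeq2 called 0) and 3 were lower at D7 (1 without control b), and Col1a2 was listed at 0 in all libraries. The sum is mostly Col1a1 and Col3a1 (24900 and 27002 CPM in control a), whose log2 fold changes at D4 were −0.66 and −0.78. Among the other tested markers Fbln1 (0.58), Pi16 (0.31) and Dpp4 (0.09) had positive values at D4. Lum (−0.05), Mfap5 (−0.33), Dcn (−0.56) and Gsn (−1.36) had negative ones, and the list median was −0.33. The part of fibroblast content in the Pdgfra values was not tested.

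Pdgfrb, the beta receptor (chromosome 18, 56364620 to 56406381), had 4754 and 4974 counts in control, against 3806 and 3973 at D4 and 4387 and 3789 at D7. Scaled levels were 244.9 and 299.9 CPM in control, 156.2 and 146.8 at D4 and 206.0 and 187.5 at D7. On this scale all 4 injured libraries lay below both controls. In FPKM, which carry no TMM factors, D7 a (27.09) lay above control a (26.12). The log2 fold change was −0.85 at D4 (SE 0.13, adjusted p = 0.00306, edgeR) and −0.47 at D7 (SE 0.12, adjusted p = 0.0298), not called at either day for its size. Without control b it was −0.69 at D4 (adjusted p = 0.00843) and −0.32 at D7 (adjusted p = 0.0955). Without TMM factors it was −0.56 and −0.18. Mural cell markers had log2 fold changes with a median of −1.33 at D4 and −1.58 at D7, and 1 and 4 of the 10 were called lower. Without control b the median was −0.31 at D4, with 6 of 10 negative, and −0.40 at D7, with 9 of 10 negative. Their summed level ran from 1607 to 7445 CPM in control, 1318 to 1423 at D4 and 766.0 to 1593 at D7, none of the 10 was at 0, and the part of mural cell content in the Pdgfrb values was not tested.

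The count ratio of Pdgfra to Pdgfrb needs no scaling between libraries. It was 1.34 and 1.12 in control, 3.24 and 3.78 at D4 and 2.09 and 2.66 at D7. The 3 groups did not overlap, with D4 highest and D7 between D4 and control. Per length the ratio was 1.66 and 1.40 in control, 4.02 and 4.70 at D4 and 2.59 and 3.31 at D7. The summed FPKM of both receptors was 69.5 and 78.5 in control, 103.4 and 110.3 at D4 and 97.4 and 107.8 at D7. Unlike the ratios, this sum depends on the scaling between libraries. It carries no TMM factors, which would narrow the gap between control and injured libraries. The ratio of summed ligand to summed receptor FPKM went from 0.589 and 0.672 in control to 0.511 and 0.458 at D4 and 0.416 and 0.399 at D7, all injured libraries below both controls.

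Met showed the largest change of the 8 genes at D4, while no change of Hgf was detected. Met, the HGF receptor, lies on chromosome 4 from 44774741 to 44852665. Control libraries held 467 and 527 counts of it, D4 libraries 3372 and 3818 and D7 libraries 1184 and 1522. Scaled, it had 24.1 and 31.8 CPM in control against 138.4 and 141.0 at D4 and 55.6 and 75.3 at D7, and the 3 groups were fully apart. Met rose 5.01-fold at D4 (log2 fold change 2.33, SE 0.20, adjusted p = 0.000423, edgeR) and 2.35-fold at D7 (log2 fold change 1.23, SE 0.19, adjusted p = 0.00481). It was the 1 gene of the 8 called between the injured groups, lower at D7 than at D4 by −1.09 (SE 0.19, adjusted p = 0.0372), where 2.18% of all tested genes were called. That call was lost without D4 a, D4 b or D7 a. In these fits calls between the days also dropped over all mRNAs, so the loss was not particular to Met. The value itself lay between −1.33 and −0.90 under the 13 alternatives. The D4 value lay between 2.14 and 2.61 under all 13 alternatives and stayed called. The D7 value was 0.995 without D7 b and thus just short of 2-fold.

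Hgf, on chromosome 4 from 15433295 to 15505362, had counts of 154 and 439 in control, 397 and 336 at D4 and 264 and 399 at D7. Scaled, these were 7.93 and 26.5 CPM, then 16.3 and 12.4, then 12.4 and 19.7. The control libraries spanned all 4 injured ones. The log2 fold change was −0.26 at D4 (95% interval −1.57 to 1.06, adjusted p = 0.726, edgeR) and −0.09 at D7 (95% interval −1.41 to 1.23, adjusted p = 0.907), so that changes near 2-fold in either direction were not resolved. Without control b, the library with the high mural markers, the values were 0.85 (adjusted p = 0.114) and 1.01 (adjusted p = 0.0847). Without control a they were −0.88 and −0.72. The FPKM ratio of Met to Hgf was 3.67 and 1.45 in control, 10.3 and 13.8 at D4 and 5.43 and 4.62 at D7, with the groups apart.

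**Figure D3:**
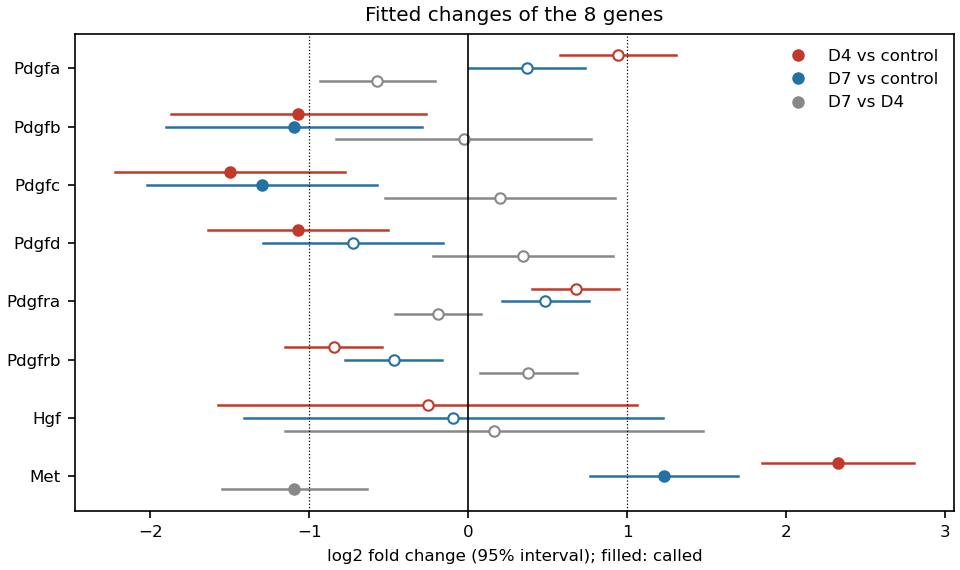
Fitted log2 fold changes (horizontal axis) of the 8 genes for D4 vs control (red), D7 vs control (blue) and D7 vs D4 (gray), with 95% intervals; filled points were called and dotted lines mark 2-fold. Met has filled points in all 3 comparisons, and the intervals of Hgf span 0 in each.

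The lncRNA table was searched for transcripts that overlap these genes or lie within 10 kb. There were 11, of which 9 passed the count filter, 8 overlapped a gene span, and Pdgfd had none. The lncRNA libraries held between 2694777 and 3043817 counted fragments. At D4 against control 2 of the 9 were called, where 10.1% of all 14077 tested lncRNAs were. At D7 1 was called, against 5.79% of all, and 1 between D7 and D4, against 0.249%. Whether the counting used the strand is not given in the sources used here, so fragments of a gene and of an overlapping lncRNA cannot be told apart.

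NONRATT020264.2 lies 1053 bp beyond the higher end of the Met span, on chromosome 4 from 44853718 to 44854627. Its counts were 46 and 51 in control, 352 and 311 at D4 and 64 and 153 at D7. Its D4 libraries were far above the others, as for Met. It rose at D4 with a log2 fold change of 2.61 (SE 0.46, adjusted p = 0.0256, edgeR), and at D7 the value was 1.07 (SE 0.45, adjusted p = 0.211). The D4 call was lost when any 1 control or D4 library was left out (adjusted p 0.106 to 0.127).

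NONRATT027130.2 overlaps the lower end of the Pdgfb span, on chromosome 7 from 121214617 to 121215334. It had 1 count in each control and each D4 library and 86 and 65 counts on D7. The pooled counts of D7 were 70.6 times those of control after scaling (95% exact counting interval 19.2 to 589) and 79.0 times those of D4 (21.5 to 659). These intervals cover counting error only. The transcript rose at D7 against control (adjusted p = 0.00485, edgeR) and against D4 (adjusted p = 0.0157), while Pdgfb itself held 433 and 458 counts on D7, or 20.3 and 22.7 CPM, below both control libraries. The call against D4 was lost with the replicate letter as a block (adjusted p = 0.0704) and without D4 a, D4 b or D7 a (adjusted p 0.0845 to 0.101).

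NONRATT007331.2 lies inside Pdgfa, on chromosome 12 from 17737571 to 17737826. It had 1 and 1 counts in control, 12 and 20 at D4 and 4 and 11 at D7, and the D4 to control ratio of pooled counts was 14.3 (95% exact counting interval 3.65 to 123). It was called at D4 (adjusted p = 0.0436, edgeR), and that call was lost in 9 of 12 alternatives. The most abundant transcript at the Pdgfa locus was NONRATT007806.2, which overlaps the lower end of the gene and had 153 and 102 counts in control, 55 and 95 at D4 and 66 and 71 at D7. Its log2 fold changes of −0.93 (adjusted p = 0.1198, edgeR) and −0.98 (adjusted p = 0.1247) were not called. The most abundant uncalled transcripts at the other loci were NONRATT015367.2 at Pdgfc (9 to 39 counts in a library), NONRATT009841.2 at Pdgfra (49 to 93), NONRATT013490.2 at Pdgfrb (55 to 145) and NONRATT021147.2 at Hgf (3 to 29).

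**Figure D4:**
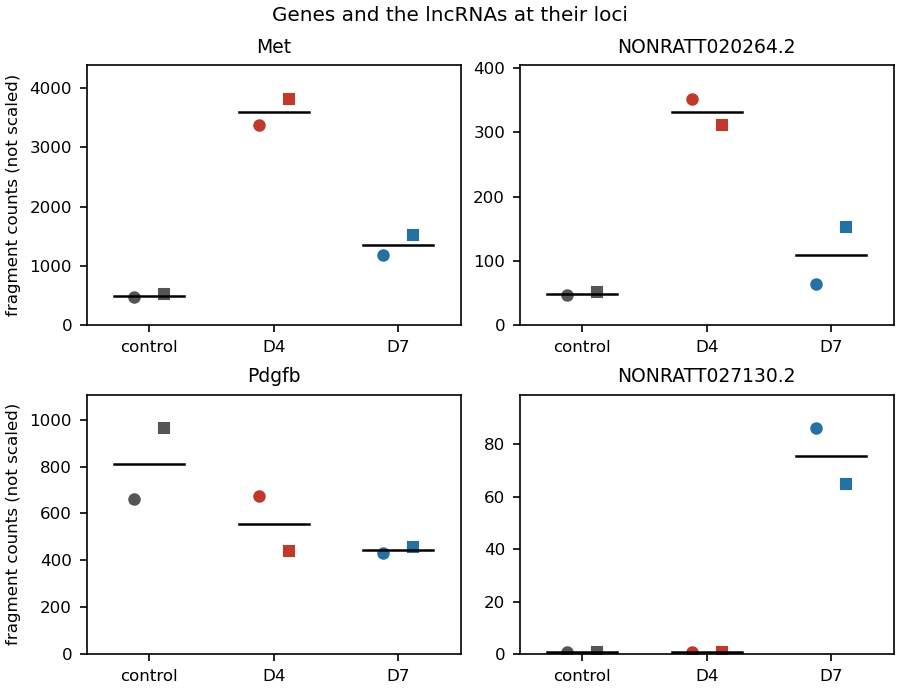
Unscaled fragment counts (vertical axes, from 0) of Met and Pdgfb and of the lncRNAs NONRATT020264.2 and NONRATT027130.2 at their loci, by group (circles a, squares b, lines group means). NONRATT020264.2 and Met are both highest on D4, and NONRATT027130.2 has 1 count in each control and D4 library and 86 and 65 on D7.

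A list of 80 other genes around these receptors covered ligand activation, its inhibitors, co-receptors, adaptors, receptor down-regulation and related ligands and receptors. Of these, 69 were tested, 7 were below the count filter, and 4 did not match 1 gene by symbol. At D4 14 were called higher and 11 lower (36.2%, beside 21.9% of all tested genes), and at D7 10 and 9 (27.5%, beside 18.8%). Without TMM factors the split was 19 higher and 5 lower at D4 and 15 and 6 at D7. The median log2 fold change of the list was 0.08 at D4 and −0.07 at D7, and the changes given for its genes are on the log2 scale.

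Genes that process the ligands changed in both directions. All 7 tested genes of ligand activation were called at D4, 5 higher and 2 lower, and 6 at D7, 4 higher and 2 lower. Over all tested genes 21.9% were called at D4 and 18.8% at D7, and the list was chosen with earlier results of these data known. Plat, the tissue plasminogen activator that cleaves PDGF-C, went from 3221 and 2354 counts in control to 12328 and 15735 at D4 and 11054 and 9662 at D7. Its log2 fold change was 1.82 at D4 (SE 0.13, adjusted p = 0.000255, edgeR) and 1.70 at D7. Plau, the urokinase that can activate PDGF-D and HGF, went from 269 and 231 counts to 1634 and 1519 at D4 and 690 and 719 at D7, and rose by 2.15 at D4 and 1.29 at D7. St14, the membrane protease matriptase that activates HGF, rose most of the group, from 40 and 28 counts to 404 and 492 on D4 (log2 fold change 3.20). Furin, which cleaves the A and B chain precursors, rose by 1.17 at D4, and at D7 its value of 0.84 was not called. Pcsk5 and Pcsk6, related convertases, fell by 1.08 and 1.93 at D4. The plasma HGF activator Hgfac held 0 to 4 counts in a library and was not tested.

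Among 4 tested inhibitors, Spint1, which blocks matriptase and the HGF activator, rose from 8 and 10 counts in control to 91 and 147 at D4 and 147 and 100 at D7 (log2 fold change 3.18 and 3.54). Its relative Spint2 had log2 fold changes of −0.26 and −0.48 and was not called. Serpine2, an inhibitor of plasminogen activators, rose by 2.53 at D4 and was lower at D7 than at D4 by −1.79 (adjusted p = 0.0117, edgeR). Of 13 tested binding partners and co-receptors, 2 rose and 2 fell at D4 (30.8%, beside 21.9% of all tested genes). Gpc1, a heparan sulfate proteoglycan of the cell surface, rose by 3.46 at D4, and Cd44, a co-receptor of MET, by 2.02 at D4 and 1.69 at D7. Itgb4, an integrin subunit that can associate with MET, fell by 1.54 at D4, and Plxnb1, a semaphorin receptor that can associate with MET, was called lower with a value of −1.498. Nrp1, a co-receptor of several growth factors, had a value of 0.09 at D4 and −0.08 at D7 and was not called.

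Of 17 tested adaptors and effectors, 2 were called at D4 and 0 at D7, beside 21.9% and 18.8% of all genes. At D7 11 of the 17 had an unadjusted p under 0.05 in edgeR, and DESeq2 called 0. The 2 were Gab2, a docking protein, which rose by 1.32, and Pik3r1, a regulatory subunit of PI3 kinase, which fell by 1.57. Gab1, the docking protein of MET, had a value of −0.51 at D4 (adjusted p = 0.0179, edgeR) and was not called. Of 13 tested genes of receptor down-regulation, 1 was higher and 2 lower at D4, and 1 higher and 3 lower at D7. Dusp6, an ERK phosphatase, rose by 1.11 at D4 and 1.34 at D7, and Ptprb, an endothelial phosphatase, was called lower with values of −1.227 and −1.598. Spry4, an inhibitor of receptor signalling to ERK, was called lower at both days (−1.06 and −1.602), and Errfi1, an inhibitor of EGF receptor kinases, at D7 (−1.87), with a value of −0.89 at D4 that was not called. Of 15 tested related ligands and receptors, 3 rose and 4 fell at D4. Csf1r, a macrophage receptor of the same kinase family as the PDGF receptors, rose by 1.65 at D4 and 1.03 at D7. Mst1r, the relative of MET, was called lower at D4 with a value of −1.601, and its ligand gene Mst1 had a value of −1.995 that was not called (adjusted p = 0.0861, edgeR). Mst1r had 7.62 CPM in control a and 17.2 in control b, against 3.69 and 4.47 at D4. Control b was also the higher control for Spry4 (65.7 and 103.8 CPM) and Ptprb (335.2 and 489.9). Values without control b are not given for Mst1r, Spry4 and Ptprb.

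**Figure D5:**
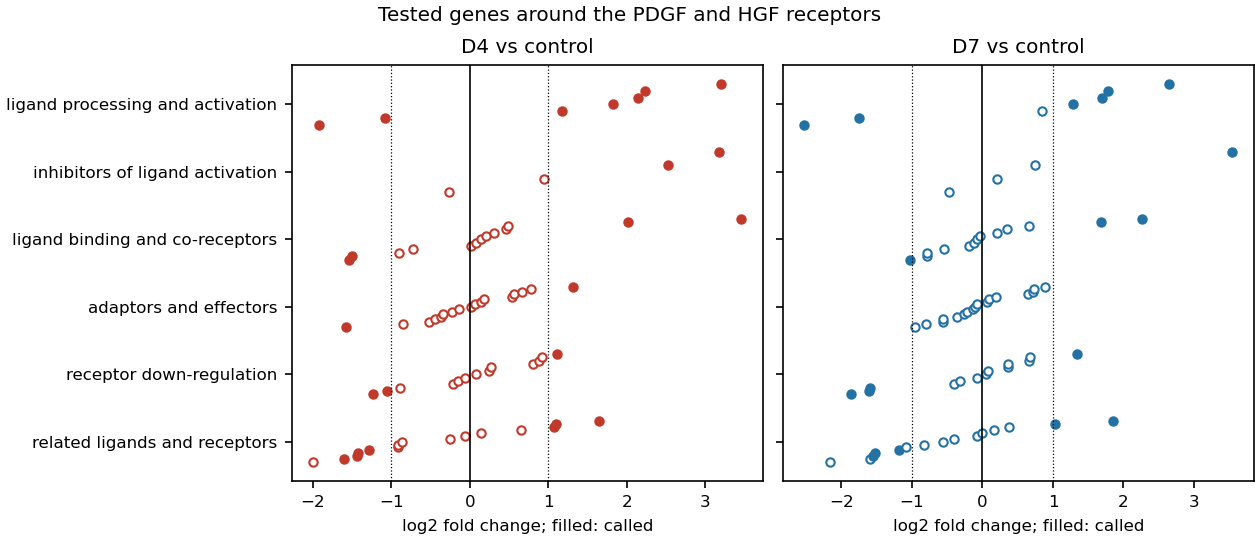
Log2 fold changes (horizontal axes) of the 69 tested genes in 6 groups of function, at D4 and D7 against control, 1 point a gene; filled points were called and dotted lines mark 2-fold. All 7 points of ligand activation are filled at D4, and 2 of 17 are among the adaptors, beside 21.9% of all tested genes.

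The genes whose profiles over the 6 libraries lay nearest to each called gene were found by the Euclidean distance between centred log2 CPM values. Nearest to Met were Evi2a (distance 0.276, with 111 and 112 counts in control, 636 and 770 at D4 and 269 and 320 at D7) and Wdr62 (0.321). Nearest to Pdgfb were Kcnq5 (0.274) and Bcl6b (0.303). Pdgfc had Agpat2 (0.271) and Pdp2 (0.285) as neighbours. Pdgfd was closest to Rhbdl3 (0.142) and to F3 (0.240), which encodes tissue factor. With 6 libraries many genes share a profile, and the distances are a description.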

How the data were processed

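Sciatic nerve RNA of 6 rats was sequenced after ribosomal RNA removal, 1 library a rat. Per the submitters' processing notes, reads were mapped with HISAT2 2.0.4 to Rnor_6.0 and handled with StringTie 1.3.0. The authors deposited whole fragment counts per gene and per lncRNA transcript. They also deposited FPKM values, and those of the 8 genes equal the count over length and mRNA total within 0.0381%, so TMM factors are not in them.

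Counts of mRNAs and of lncRNAs were fitted separately with edgeR 4.0.16 in R 4.3.3 (filterByExpr, TMM factors, quasi-likelihood test, 1 fit of the 6 libraries, Benjamini-Hochberg adjustment). On simulated data it recovered fold sizes in both tables and most changed mRNAs, but called none of the changed lncRNAs, so lncRNAs without a call are not shown to be unchanged. SE is the absolute log2 fold change over the square root of F. Precision rests on 2 libraries a group. The members, lists and naming rule were chosen with earlier results of these data known, and the motifs after values were seen. Named were all 8 genes, a few set genes, some called genes and the D4 extremes of each list, 2 nearest profiles, and lncRNAs called or most abundant at a locus. lncRNAs were matched by deposited coordinates and upstream sequences by symbol. Alternatives were the 2 groups alone, the replicate letter as a block, DESeq2 1.42.0, no TMM factors, 2 other count filters and leaving out each library. Python 3.11.15 made tables and figures.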

Additional observations from a re-analysis of the deposited data

Results flagged for a closer look

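The effects at D4 and D7 differed by the direct comparison for 1 of the 8 genes and 1 lncRNA at their loci. Met was lower at D7 than at D4 by −1.09 on the log2 scale, with 3372 and 3818 counts on D4 and 1184 and 1522 on D7. NONRATT027130.2 was higher at D7 than at D4 by 6.13 on the log2 scale, a fitted value that rests on 1 count in each D4 library.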

How the results depend on the processing

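Of 312 values of the 8 genes under alternatives, 273 kept direction and call status, 22 lost a call, 4 gained one and 13 changed sign. No changed sign belonged to a called value, and the cause was not tested. Without TMM factors Hgf was 0.023 at D4 and 0.20 at D7, and NONRATT027130.2 was 0.015 at D4. The letters mark different rats and share only a letter (correlations of same-lettered deviations of 0.01, 0.195 and −0.134). With the replicate block, calls among the 8 genes were 3, 2 and 1 at D4, D7 and between the days, all mRNAs gave 3281, 2827 and 248, Hgf at D7 was 0.0026, and lncRNAs at the loci fell from 2 to 1 at D4 and from 1 to 0 between the days. Exchanging the D4 letters in the block, chosen after seeing the data, gave 1 and 0 lncRNAs, 334 mRNAs between the days, 0.042 for Hgf at D7 and 0.025 for Pdgfb between the days. DESeq2 called 521 mRNAs (edgeR 331) and 2 lncRNAs at the loci between the days. At D4, 0 lncRNAs at the loci were called without the count filter and 1 among overlapping ones alone.

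Leaving out each library in turn, in fits where a lone library is assumed to vary like the other groups, calls among the 8 genes ranged from 1 to 5 at D4, 1 to 4 at D7 and 0 to 1 between the days. Those of lncRNAs at the loci ranged from 0 to 1 at D4 and 0 to 1 between the days, and those of pathway genes between the days from 0 to 4. All mRNAs between the days ranged from 0 to 469: without D4 a or D4 b edgeR called 0, with 2054 and 2296 at an unadjusted p under 0.05, and without D7 a it called 99. Hgf ranged from −0.88 to 0.85 at D4, from −0.72 to 1.01 at D7 and from −0.21 to 0.45 between the days, Pdgfb from −0.36 to 0.40 and Pdgfc from −0.24 to 0.53 between the days. How far depth limits the calls was not tested.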
